A study of Mus musculus with 12 samples.

Results

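The lungs of 6 mice given bovine lactoferrin (bLF) were set against the lungs of 6 mice not given it, out of 12 sequenced lungs in all. The bLF side pooled 3 mice given bLF at 200 mg/kg per day (bLF) and 3 mice given lipopolysaccharide together with bLF (LPS+bLF). The other side pooled 3 untreated mice (control) and 3 mice given lipopolysaccharide, 50 µL at 1 µg/µL, without bLF (LPS). All were male BALB/c mice, an inbred laboratory strain, aged 6 to 8 weeks and weighing 20 g, and lungs were taken after 14 days. The study held 24 mice, 6 per group, of which 3 per group were sequenced, with 1 library per mouse. The labels give neither the route of bLF nor the route and day of LPS, and the treatment field of the LPS+bLF samples is spelled differently from their titles. Pooling makes 1 question testable, which is whether any gene differed with bLF on average over mice with and without LPS. A difference at only 1 LPS level can also move this average.

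Lactoferrin is an iron-binding glycoprotein of the transferrin family, found in milk, in airway secretions and in the granules of neutrophils. It withholds iron from bacteria and binds lipopolysaccharide, the outer-membrane component of Gram-negative bacteria that cells sense through Cd14 and Tlr4. Taken up by cells, it is known to bind surface proteins that include Lrp1, nucleolin, intelectin and the asialoglycoprotein receptor. The lung makes its own lactoferrin from the gene Ltf, so a mouse Ltf value says nothing of the bovine protein that was given.

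Each library held 16714327 to 17820645 counts. A gene entered the tests when 3 or more libraries reached 0.5 FPKM, a fragment count that the authors divided by gene length and sequencing depth, and 13735 of 17920 genes did. The alveolar, airway, endothelial and epithelial markers checked, such as Sftpc, Scgb1a1 and Cdh5, were present in every library, the lowest at 5.71 FPKM. The library labelled LPS 1 stood apart, with a median correlation of 0.884 to the other libraries, against 0.918 to 0.973 for the rest, and with 3067 genes at a count of 0, against 1499 to 1963. Control 1, bLF 1, LPS+bLF 2 and LPS+bLF 3 carried high levels of genes of muscle, brown fat or squamous epithelium. Because whole lung was measured, fewer cells of a type and less RNA per cell cannot be told apart anywhere below.

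No gene passed edgeR's test of the bLF difference, and DESeq2 called Casz1 and Dusp8. With LPS as a covariate, edgeR's quasi-likelihood test found 0 of 13735 genes under the threshold of 0.05 (0% of those tested), with a smallest Benjamini-Hochberg adjusted p of 0.965. At an unadjusted p under 0.05 there were 647 genes (4.71%), of which 307 were higher (2.24%) and 340 lower (2.48%) with bLF. The limma test on log2(FPKM + 1) also called 0 genes and had 450 (3.28%) at this unadjusted level. DESeq2 called 2 of 13435 genes (0.0149%) and had 818 (6.09%) at the unadjusted level. The pair was Casz1, at -0.45, and Dusp8, at 0.50 on the log2 scale, each with an adjusted p of 0.00506. The bLF differences were small for most genes, with a median log2 fold change of -0.02, a median absolute value of 0.14 and a 95th percentile of 0.67.

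Counting libraries rather than fitting means gave a short list of genes. How many genes would separate by the order of libraries alone was not worked out. Meeting a rule therefore does not show that a gene moved with bLF. On CPM (counts divided by a library size scaled with TMM, the trimmed mean of M values), 39 genes (0.284% of those tested) had all 6 bLF libraries on 1 side of all 6 others, 22 of them higher (0.16%) and 17 lower (0.124%) with bLF. Within each LPS level separately, 103 genes (0.75%) had all 3 bLF libraries on the same side of the 3 others, 50 higher (0.364%) and 53 lower (0.386%). A further loosening, to at least 5 of 6 libraries beyond at least 5 of the other 6, held 1336 genes (9.73%), 649 higher (4.73%) and 687 lower (5%). The direction depended on the scale. On FPKM, 29 genes separated all 6 libraries, of which 4 were higher and 25 lower with bLF, so that the share higher was 13.8%, against 56.4% on the TMM scale. The club cell gene Scgb1a1 alone took 258177 CPM in control 2, and its part in this difference between scales was not tested. Separated on both scales were 9 genes, among which Edn1, Pira1, Gm614, Mtfr1l, Zfand5 and Cyp3a13 were lower, and D8Ertd738e and Fhl3 higher with bLF.

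Edn1 had the widest gap of the separated genes. It encodes endothelin-1, the vasoconstrictor peptide released mainly by endothelial cells, and lies at chr13:42301476-42307990 of GRCm38. Normalised levels were 15.6, 8.46 and 17.3 CPM in bLF lungs and 13.4, 9.90 and 15.4 CPM in LPS+bLF lungs, against 21.2, 23.4 and 19.7 CPM in control lungs and 115, 20.0 and 29.1 CPM in LPS lungs. The highest bLF-exposed lung stayed below the lowest of the other 6. In FPKM the mean was 7.01 ± 1.85 with bLF and 18.8 ± 15.9 without it (SD, n = 6 each). LPS 1 was far above the rest. The log2 fold change with bLF was -1.36 ± 0.44 (SE), and it was -0.77 without LPS 1. It was -0.64 without LPS and -2.08 with LPS, a difference between LPS levels of -1.44 ± 0.77 that did not pass (edgeR adjusted p = 1.00).

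Casz1, a zinc finger transcription factor known from heart and vessel development, had the next widest gap. It had 44.6, 42.1 and 40.0 CPM in bLF lungs and 41.7, 32.5 and 36.9 CPM in LPS+bLF lungs, against 50.2, 62.1 and 59.6 CPM in control lungs and 50.6, 50.9 and 51.3 CPM in LPS lungs. On CPM no bLF-exposed lung reached any of the others, but on FPKM Casz1 did not separate the 2 sides. In FPKM the mean was 6.17 ± 0.79 with bLF and 8.30 ± 0.91 without it (SD, n = 6 each). The log2 fold change was -0.45 ± 0.09, with -0.44 without LPS and -0.46 with LPS, and it stayed between -0.49 and -0.41 when each library was left out in turn. In edgeR its adjusted p was 0.965.

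Dusp8, a phosphatase that inactivates the stress kinases JNK and p38, was the gene with the smallest unadjusted p in edgeR. Levels were 58.8, 57.4 and 67.7 CPM in bLF lungs, against 47.2, 42.7 and 39.5 CPM in control lungs. In mice given LPS they were 50.0, 43.1 and 52.7 CPM in LPS+bLF lungs, against 38.0, 30.6 and 34.1 CPM in LPS lungs. The groups did not overlap within either LPS level, but LPS+bLF 2 lay below control 1, so all 6 against 6 did overlap. The mean was 12.5 ± 1.99 FPKM with bLF and 8.86 ± 1.63 FPKM without it (SD, n = 6 each). The log2 fold change was 0.51 ± 0.10, and 0.51 at each LPS level.

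Ciart encodes a repressor of the circadian clock, also called Chrono. It had 75.0, 68.6 and 57.7 CPM in bLF lungs, against 42.1, 39.0 and 50.9 CPM in control lungs. It had 44.0, 38.8 and 54.5 CPM in LPS+bLF lungs, against 33.8, 38.6 and 32.2 CPM in LPS lungs. Here too the groups separated within each LPS level and overlapped across them, and the margin in mice given LPS was narrow. The mean was 48.2 ± 12.7 FPKM with bLF and 33.7 ± 7.61 FPKM without it (SD, n = 6 each). The log2 fold change was 0.50 ± 0.12. Of the 21 tested clock genes, 12 had a higher and 9 a lower fitted mean with bLF, beside 45.7% higher among all tested genes, with a median of 0.04. The repressor Nfil3 was the other clock gene at an unadjusted p under 0.05 and had a value of -0.87 ± 0.30. The hour at which lungs were taken is not given in the sources used here.

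**Figure D1:**
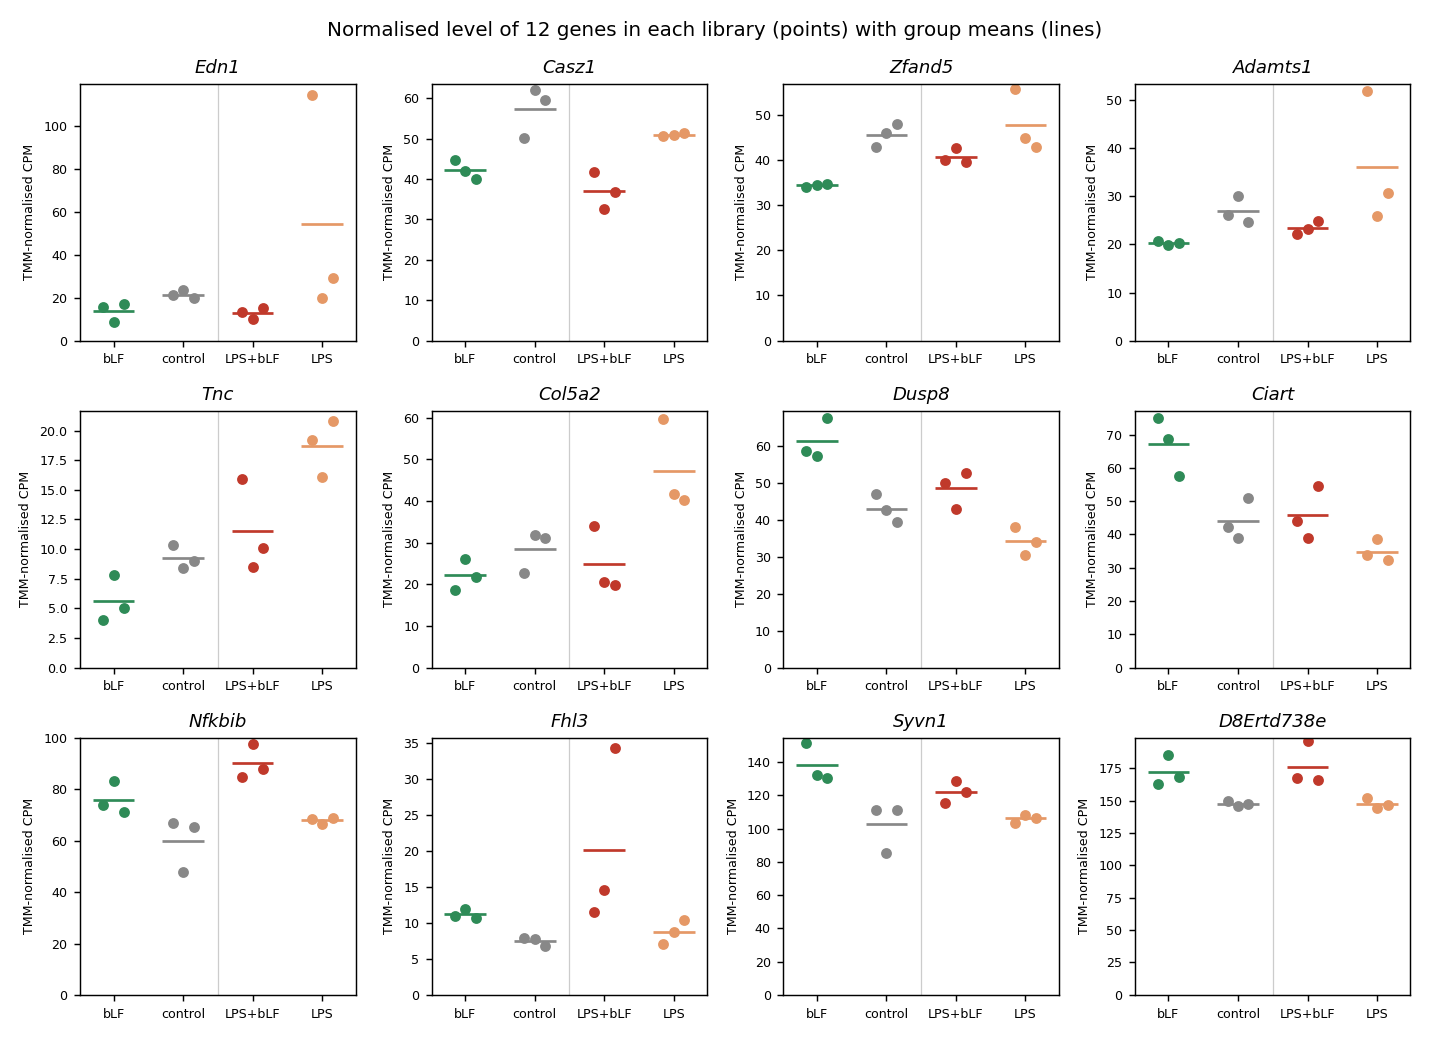
TMM-normalised CPM of 12 named genes (vertical axes, starting at 0) in each library, with bLF beside control and LPS+bLF beside LPS. Points are single mice and lines are group means; LPS 1 is the high point at 115 CPM for Edn1, and LPS+bLF 3 is the high point at 34.3 CPM for Fhl3.

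The 250 bases before the start of these 4 genes are shown because they differ in the motifs they hold. Edn1 and Casz1 had the widest gaps of the separated genes, and Dusp8 had the smallest unadjusted p in edgeR. Dusp8 and Ciart separated only within each LPS level. The 4 genes were picked with their values known, so the motif shares given for them below are not a test. The sequences are from RefSeq for GRCm38.p6, each given 5′ to 3′ on the strand of its gene, and capitals mark a cAMP response element (CRE, TGACGTCA) in Dusp8 and an E-box (CACGTG), the site of the CLOCK and BMAL1 proteins, in Ciart.
Edn1, chr13:42301226-42301475, plus strand: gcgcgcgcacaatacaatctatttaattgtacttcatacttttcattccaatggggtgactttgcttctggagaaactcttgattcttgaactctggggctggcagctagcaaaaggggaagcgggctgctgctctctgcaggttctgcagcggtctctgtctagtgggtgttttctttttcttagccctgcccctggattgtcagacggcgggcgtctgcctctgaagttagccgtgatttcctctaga
Casz1, chr4:148889097-148889346, plus strand: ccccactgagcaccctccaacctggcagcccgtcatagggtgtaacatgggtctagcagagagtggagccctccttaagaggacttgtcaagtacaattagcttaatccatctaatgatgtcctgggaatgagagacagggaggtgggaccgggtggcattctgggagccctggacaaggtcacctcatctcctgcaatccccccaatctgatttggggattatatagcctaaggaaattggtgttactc
Dusp8, chr7:142095285-142095534, minus strand: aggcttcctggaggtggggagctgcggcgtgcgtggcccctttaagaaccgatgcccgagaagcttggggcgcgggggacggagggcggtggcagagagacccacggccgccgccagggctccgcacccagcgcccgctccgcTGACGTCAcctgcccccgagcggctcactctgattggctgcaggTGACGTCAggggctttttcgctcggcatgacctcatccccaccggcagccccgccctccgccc
Ciart, chr3:95882229-95882478, minus strand: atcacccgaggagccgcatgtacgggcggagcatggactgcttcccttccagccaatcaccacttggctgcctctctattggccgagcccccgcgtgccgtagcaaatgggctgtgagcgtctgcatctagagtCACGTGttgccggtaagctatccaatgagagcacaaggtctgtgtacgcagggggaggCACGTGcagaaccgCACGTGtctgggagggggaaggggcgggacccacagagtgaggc

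The promoter of Dusp8 held the CRE at 107 and at 63 bases before the start, and that of Ciart held the E-box at 116, 58 and 44 bases before it. At least 1 CRE was found in 1.62% of the 27025 promoters of the table and at least 2 in 0.037%, which is 10 promoters. At least 1 E-box was found in 6.05% and at least 3 in 0.0666%, which is 18 promoters. The other motifs searched, on both strands, were AP-1 (TGANTCA), the heat-shock element and the TATA box (TATAAA). The promoters of Edn1 and Casz1 held no match to any of the 5. Of the separated genes, 20 of 22 higher and 15 of 17 lower had a promoter in the table. The E-box was in 0 of these 20 and 0 of these 15, the CRE in 0 and 1, and AP-1 in 1 and 2. The heat-shock element was in 0 of the 20 and 1 of the 15, and the TATA box in 2 and 0. Among the 27025 promoters, at least 1 AP-1 site was found in 1856 (6.87%). At least 1 heat-shock element was found in 108 of them and at least 1 TATA box in 3504.

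Other genes of small unadjusted p did not separate all 6 libraries. Higher with bLF were Cdc42ep2 (0.58 ± 0.15), an effector of the small GTPase Cdc42, Bcl6b (0.49 ± 0.13), a transcriptional repressor, and Naa16 (0.67 ± 0.17), a subunit of an enzyme that acetylates new proteins. Kti12 (0.36 ± 0.09), Mpp2 (0.46 ± 0.13) and Zmat5 (0.46 ± 0.13) were also on that side, as was the keratin Krt5, described with the squamous genes. Bcl6b had 50.3, 73.5 and 65.5 CPM in bLF lungs and 78.1, 64.4 and 83.6 CPM in LPS+bLF lungs, against 55.1, 36.7 and 48.8 CPM in control lungs and 53.4, 51.0 and 49.2 CPM in LPS lungs. bLF 1 was the library that overlapped. Lower with bLF were Prickle1 (-0.52 ± 0.14) and Frmd4a (-0.69 ± 0.19), which act in cell polarity, and Nectin4 (-0.58 ± 0.17), which acts in adhesion. Denn2b (-0.56 ± 0.13), the amino acid transporter Slc36a1 (-0.56 ± 0.17) and the zinc finger gene Zfp608 (-0.35 ± 0.10) were also lower.

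Genes lower in all 6 bLF-exposed lungs mostly differed by little. Zfand5, a zinc finger protein that promotes breakdown of proteins by the proteasome, had 34.1, 34.5 and 34.7 CPM in bLF lungs and 40.0, 42.8 and 39.6 CPM in LPS+bLF lungs. The other sides had 43.0, 46.1 and 48.0 CPM in control lungs and 55.9, 44.9 and 42.9 CPM in LPS lungs. The gap between LPS+bLF 2 and LPS 3 was narrower than the range within any group, and the log2 fold change was -0.32 ± 0.09. Ubxn7, a cofactor of the unfolding ATPase p97, had a value of -0.32 ± 0.10, and Gxylt1, which adds xylose to Notch, had -0.43 ± 0.18, and -0.22 without LPS 1. Itsn2 (-0.18 ± 0.08) and Rin2 (-0.26 ± 0.10) serve endocytosis. Cep57 (-0.30 ± 0.10) belongs to the centrosome. Slc9a8 (-0.22 ± 0.08) exchanges sodium for protons, and Cyp3a13 (-0.52 ± 0.21, and -0.31 without LPS 1) is a cytochrome P450. Arl5a, Ccdc82, Mctp1 and Mtfr1l were also on this side, with values between -0.66 and -0.14, and Mtfr1l was -0.17 without LPS 1.

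Pira1 and Gm614 were also lower, with an uncertain count for Pira1 and levels near the floor for Gm614. Pira1, an activating immunoglobulin-like receptor of myeloid cells, was at 0 in bLF 1 and bLF 2 and highest among bLF-exposed lungs at 3.79 CPM in bLF 3, against 3.92 to 5.16 CPM in control lungs and 5.61 to 8.51 CPM in LPS lungs. Its family of near-identical copies can split reads. Its value was -2.06 ± 0.82, and -3.44 without bLF 3. Gm614 had at most 0.119 CPM in any bLF-exposed lung, against 0.126 to 0.561 CPM in the others, and 3 counts correspond to 0.168 to 0.179 CPM.

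Among the 22 genes higher in all 6 bLF-exposed lungs, Syvn1, the ubiquitin ligase Hrd1 that clears misfolded proteins of the endoplasmic reticulum, had 151, 132 and 131 CPM in bLF lungs and 116, 128 and 122 CPM in LPS+bLF lungs. It had 111, 85.2 and 111 CPM in control lungs and 103, 108 and 107 CPM in LPS lungs. All bLF-exposed lungs were above the rest on CPM, with a log2 fold change of 0.32 ± 0.10. Of the 22 genes, only D8Ertd738e and Fhl3 also separated on FPKM. Ube2n, a ubiquitin-conjugating enzyme that acts in immune signalling, had 0.18 ± 0.07. Nsfl1c, a p97 cofactor, had 0.28 ± 0.16, and 0.15 without LPS 1, which had 60.5 CPM against 117 to 134 CPM in the other libraries without bLF. Hsbp1, which binds the heat-shock factor Hsf1, had 0.19 ± 0.09.

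Nfkbib encodes an inhibitor that holds NF-kB in the cytoplasm. It had 73.8, 83.2 and 71.2 CPM in bLF lungs and 85.0, 97.6 and 87.9 CPM in LPS+bLF lungs, against 66.9, 47.8 and 65.2 CPM in control lungs and 68.5, 66.4 and 69.1 CPM in LPS lungs. The value was 0.38 ± 0.10, with 0.34 without LPS and 0.41 with LPS. On the path by which cells sense LPS and activate NF-kB, 32 genes were tested. Of these, 9 had a higher and 23 a lower fitted mean with bLF, beside 45.7% higher among all tested genes. The median was -0.14. At an unadjusted p under 0.05 there was 1 member in each direction, beside 2.24% higher and 2.48% lower among all tested genes. The member on the lower side was Tnfaip3, the ubiquitin-editing enzyme A20 that NF-kB induces, at -0.33 ± 0.15. Cd14 had -0.56 ± 0.28 and Tlr4 -0.11 ± 0.18, which was 0.02 without LPS 1.

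Mfge8, first known from milk fat globules and a bridge between dying cells and phagocytes, had 592, 627 and 674 CPM in bLF lungs, against 579.6, 419 and 568 CPM in control lungs. It had 586, 695 and 625 CPM in LPS+bLF lungs, against 487, 499.9 and 489 CPM in LPS lungs. The gap between LPS+bLF 1 and control 1 was narrow, and the log2 fold change was 0.32 ± 0.11. D8Ertd738e had 163, 185 and 168 CPM in bLF lungs and 167, 196 and 166 CPM in LPS+bLF lungs, against 144 to 152 CPM in the other 6, with a value of 0.24 ± 0.09. Timm17b, of the mitochondrial import channel, had 0.19 ± 0.08, and Sdhaf4, an assembly factor of succinate dehydrogenase, had 0.35 ± 0.12. Slc25a29 (0.40 ± 0.12) carries basic amino acids into mitochondria. Tecr (0.45 ± 0.17) acts in the elongation of very long fatty acids, and Slc2a8 (0.28 ± 0.10) is a glucose transporter. Cln6 (0.39 ± 0.12) is a protein of the endoplasmic reticulum needed by lysosomes, Snx15 (0.32 ± 0.12) and Scamp3 (0.25 ± 0.09) take part in endosomal traffic, and Prmt7 (0.35 ± 0.10) methylates arginine.

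Fhl3, a LIM-domain protein abundant in skeletal muscle, had 10.98, 11.9 and 10.7 CPM in bLF lungs and 11.5, 14.6 and 34.3 CPM in LPS+bLF lungs, against 7.93, 7.80 and 6.77 CPM in control lungs and 7.08, 8.67 and 10.4 CPM in LPS lungs. The high library was LPS+bLF 3, which also held the most skeletal muscle RNA, and the value of 0.89 ± 0.25 was 0.58 without it. Med28, Ino80b, Nabp2, Mob3c and Mettl25 completed the higher side, with values between 0.25 and 0.47, and Nabp2 was 0.31 without LPS 1. The genes that separate were chosen by their order, so their unadjusted p, under 0.05 for 35 of the 39, adds nothing to it.

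**Figure D2:**
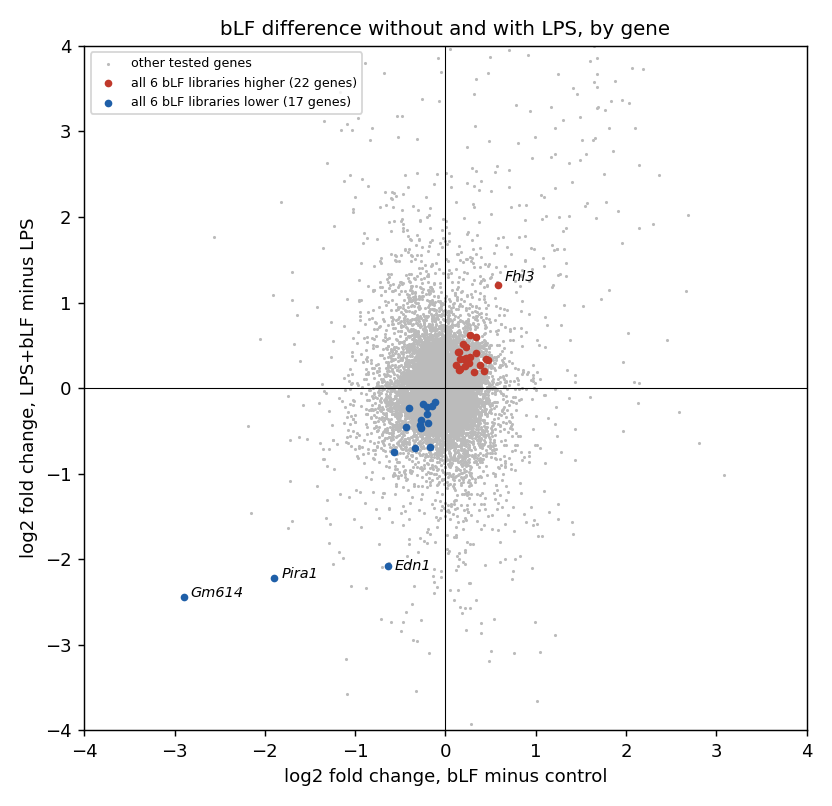
Log2 fold change of bLF minus control (horizontal) against that of LPS+bLF minus LPS (vertical) for each tested gene, with the 22 and 17 separated genes in colour; 106 genes lie outside the limits of 4 and are not drawn. The cloud is wider on the vertical axis, and the Spearman correlation over genes is 0.02.

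The bLF differences in mice without and with LPS had little in common. No libraries are shared between them, and 7088 genes (51.6%) had the same sign at both LPS levels. Over genes, which are not independent replicates, Pearson's correlation of the log2 fold changes was 0.09 and Spearman's 0.02. Single libraries moved these values. Without LPS 1 the Spearman correlation was 0.32 and 62.8% of genes had the same sign. Without bLF 1 Pearson's correlation was -0.54, and without control 1 it was 0.47. Tested alone, bLF against control called 0 genes (189 at an unadjusted p under 0.05, 1.38%) and LPS+bLF against LPS called 0 (950, 6.92%) in edgeR. Without LPS 1, edgeR called 2 genes in LPS+bLF lungs against LPS lungs, the granzymes Gzma (-1.65 ± 0.20) and Gzmb (-3.31 ± 0.37) of cytotoxic lymphocytes, which were chosen after their values were seen. The difference between the LPS levels was called for 0 genes (384 at an unadjusted p under 0.05, 2.80%).

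Genes of the extracellular matrix were mostly lower with bLF, on the strength of the mice given LPS. Of 37 tested, 7 had a higher and 30 a lower fitted mean, beside 45.7% higher among all tested genes. In edgeR 0 were called, and 7 were lower at an unadjusted p under 0.05, beside 2.48% of all tested genes. The median was -0.28, beside -0.02 for all tested genes, with -0.03 without LPS and -0.45 with LPS. It was -0.16 without LPS 1, whose summed level over the list was 17138 CPM, against 4289 to 7096 CPM in the other 11 libraries. It was -0.10 without control 1, bLF 1, LPS+bLF 2 and LPS+bLF 3 together. The part of LPS 1 in the values of single matrix genes was not tested beyond leaving it out.

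Tnc encodes tenascin-C, a matrix glycoprotein of injured and remodelling tissue. It had 4.00, 7.83 and 5.05 CPM in bLF lungs, against 10.3, 8.43 and 8.97 CPM in control lungs. It had 15.9, 8.53 and 10.1 CPM in LPS+bLF lungs, against 19.2, 16.0 and 20.8 CPM in LPS lungs. The groups separated within each LPS level, with LPS+bLF 1 barely below LPS 2. The value was -0.71 ± 0.19, with -0.72 and -0.70 at the levels without and with LPS. It was -0.34 without the 4 libraries that held muscle, fat or squamous genes.

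Col5a2, a chain of the collagen that starts fibrils, had -0.65 ± 0.19, and Col3a1, the collagen of elastic tissues, had -0.52 ± 0.18. Col3a1 had 130, 118 and 82.5 CPM in bLF lungs, against 135, 121 and 139 CPM in control lungs, which overlapped. It had 178, 133 and 106 CPM in LPS+bLF lungs, against 284, 194 and 241 CPM in LPS lungs, which did not. Col1a2 (-0.52 ± 0.22, and -0.31 without LPS 1), the collagen crosslinking enzymes Loxl2 (-0.58 ± 0.23) and Lox (-1.01 ± 0.45) and the laminin chain Lama2 (-0.38 ± 0.17) were the rest of the 7. Adamts1, a protease that cuts matrix proteoglycans, had 20.8, 19.9 and 20.3 CPM in bLF lungs and 22.2, 23.3 and 24.8 CPM in LPS+bLF lungs, against 24.7 to 30.1 CPM in control lungs and 26.0 to 51.9 CPM in LPS lungs. Its value was -0.52 ± 0.15, and -0.35 without LPS 1.

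Heat-shock and stress chaperones were higher with bLF in mice not given LPS. Of 25 tested, 18 had a higher and 7 a lower fitted mean, beside 45.7% higher among all tested genes. At an unadjusted p under 0.05, 5 were higher, beside 2.24% of all tested genes. The median was 0.18 over both LPS levels, 0.53 without LPS and -0.05 with LPS. Over both levels it was 0.37 without LPS 3 and 0.12 without control 1. Summed over the list, bLF lungs had 12164, 10849 and 11342 CPM, against 7869, 7362 and 7273 CPM in control lungs, which did not overlap. LPS+bLF lungs had 6722, 7453 and 9920.0 CPM, against 7085, 6830 and 10129 CPM in LPS lungs, which did.

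Stip1, which hands client proteins between Hsp70 and Hsp90, had 338, 281 and 315 CPM in bLF lungs, against 174, 148 and 154 CPM in control lungs. It had 146, 177 and 236 CPM in LPS+bLF lungs, against 103, 139.6 and 219.8 CPM in LPS lungs. The log2 fold change was 0.97 without LPS and 0.27 with LPS, and 0.62 ± 0.21 for both. The Hsp90 gene Hsp90ab1 had 0.50 ± 0.20, its partners Fkbp4 and Chordc1 had 0.41 ± 0.14 and 0.56 ± 0.19, and Dnaja1, a partner of Hsp70, had 0.53 ± 0.22. The difference between LPS levels in Stip1 was -0.70 and did not pass (edgeR adjusted p = 1.00).

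Immediate-early genes, transcribed within minutes of a stimulus and also after tissue handling, were mostly lower with bLF. Of 27 tested, 7 had a higher and 20 a lower fitted mean, beside 45.7% higher among all tested genes, and 5 were lower at an unadjusted p under 0.05, beside 2.48%. The median was -0.18, with -0.19 without LPS and -0.20 with LPS. It was -0.03 without LPS 1. Fos, a subunit of the AP-1 transcription factor, had 6.70, 11.01 and 33.2 CPM in bLF lungs, against 57.9, 20.2 and 19.6 CPM in control lungs. It had 9.72, 6.09 and 21.6 CPM in LPS+bLF lungs, against 36.7, 22.2 and 28.1 CPM in LPS lungs. The groups separated narrowly with LPS and overlapped without it, where bLF 3 was above control 2 and control 3, and the value was -1.08 ± 0.44. Ccn1, a matrix-associated signalling protein, had -0.67 ± 0.26, and Jun, Dusp1 and Nr4a1 had -0.26 ± 0.12, -0.49 ± 0.22 and -0.49 ± 0.21.

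Glucocorticoid-induced genes had 7 higher and 12 lower of 19 tested, beside 45.7% higher among all tested genes, and 3 were lower at an unadjusted p under 0.05, beside 2.48%. The median of -0.21 turned to 0.27 without LPS 1. Sgk1, a kinase of sodium transport, had 21.4, 23.4 and 34.5 CPM in bLF lungs and 25.3, 24.6 and 28.9 CPM in LPS+bLF lungs, against 30.0, 37.2 and 33.2 CPM in control lungs and 67.6, 35.7 and 42.8 CPM in LPS lungs. Only bLF 3 lay within the range of the lungs without bLF, and the value was -0.61 ± 0.19.

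**Figure D3:**
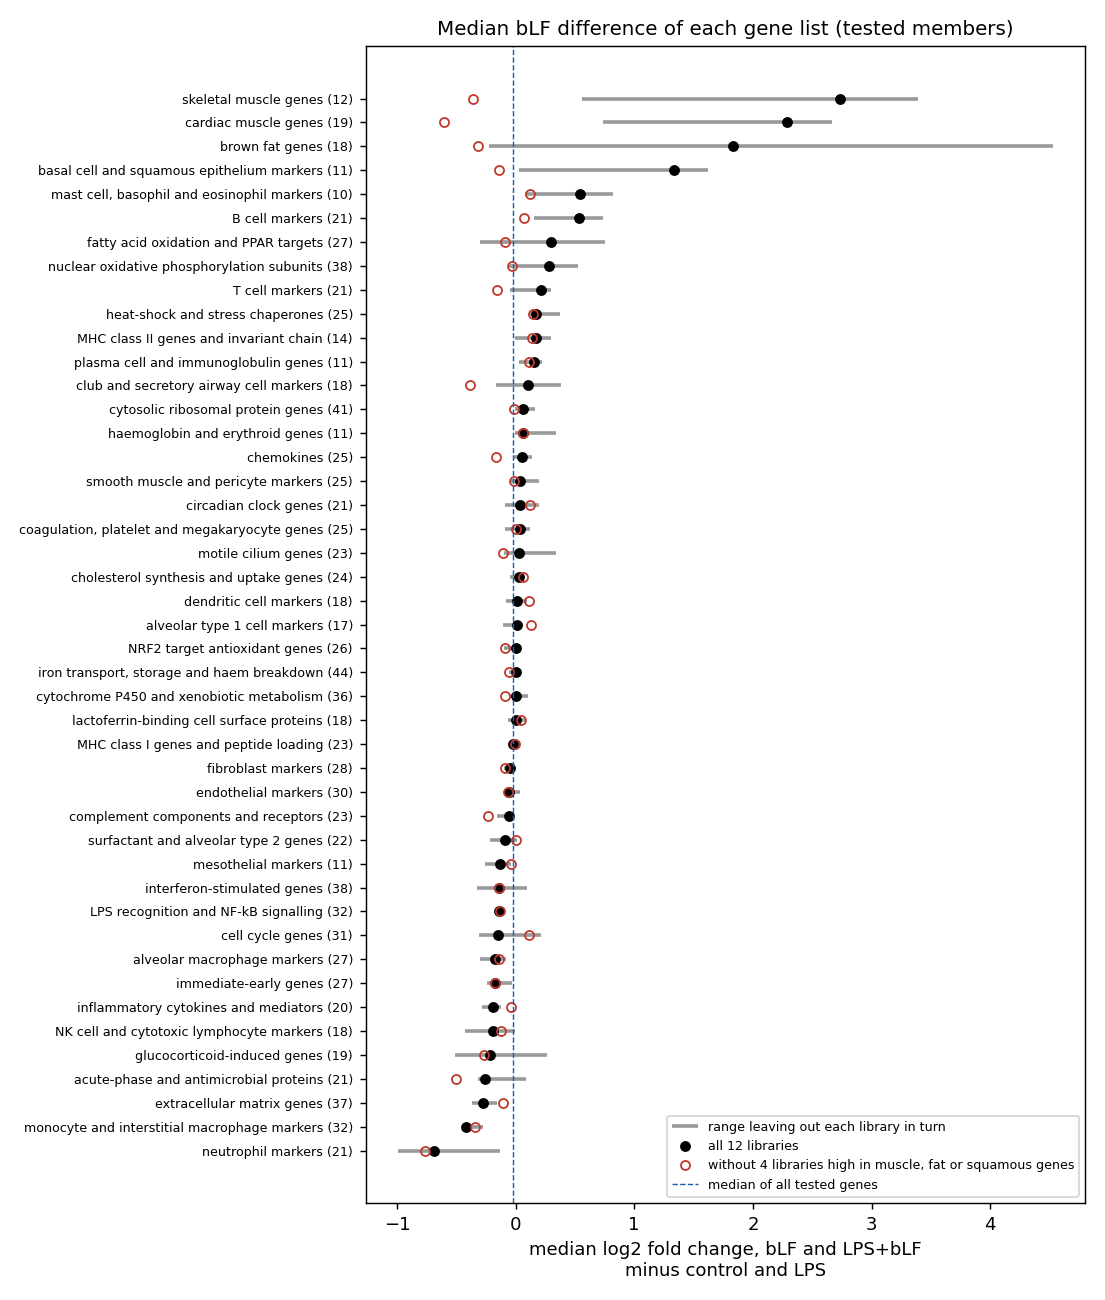
Median log2 fold change with bLF (horizontal) over the tested members of each of 45 gene lists, whose number is in brackets, with all 12 libraries (black), with each library left out in turn (grey bar) and without control 1, bLF 1, LPS+bLF 2 and LPS+bLF 3 (open red). The muscle, brown fat and squamous lists lie highest with all libraries, at 1.33 to 2.73, and lie below 0 without the 4 libraries.

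The genes of surface proteins that bind lactoferrin, and those of iron handling, showed no common direction. Of 18 tested cell surface proteins that bind lactoferrin, 9 had a higher and 9 a lower fitted mean, with a median of 0.00. Lrp1, an endocytic receptor, had -0.19 ± 0.13, nucleolin (Ncl) -0.30 ± 0.27, Itln1 -0.43 ± 0.39 and Asgr2 0.60 ± 0.44. Without LPS 1, Ncl was 0.05, Itln1 -0.11 and Asgr2 0.37. Asgr1, a chain of the asialoglycoprotein receptor, had values of opposite sign at the LPS levels. It had 4.23, 5.61 and 6.64 CPM in LPS+bLF lungs, against 2.03, 1.34 and 1.82 CPM in LPS lungs, which did not overlap. It had 6.31, 3.97 and 5.68 CPM in bLF lungs, against 4.87, 8.68 and 4.57 CPM in control lungs, which did. The log2 fold changes were 1.66 with LPS and -0.18 without, a difference of 1.85 ± 0.47 that did not pass (edgeR adjusted p = 1.00).

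Of 44 tested genes of iron transport, storage and haem breakdown, 22 had a higher and 22 a lower fitted mean, with a median of 0.00. The transferrin receptor Tfrc, which is raised in iron-poor cells, had 0.08 ± 0.19 and the iron exporter Slc40a1 -0.28 ± 0.15. The ferritin chains Fth1 and Ftl1 had -0.41 ± 0.22 and 0.02 ± 0.13, and haem oxygenase Hmox1 had -0.89 ± 0.57, with 418 CPM in LPS 1 against 35.9 to 57.9 CPM in the other 11 libraries. Without LPS 1 the value of Hmox1 was 0.01 and that of Tfrc -0.06, and that of Ftl1 was -0.02 without LPS 2. Hepcidin (Hamp) was between 0.0572 and 40.4 CPM in bLF-exposed lungs and between 0.161 and 8.87 CPM in the others, which overlapped. Lcn2, which binds bacterial iron carriers, had 68.9, 86.3 and 105 CPM in bLF lungs and 149, 69.7 and 80.5 CPM in LPS+bLF lungs, against 60.2, 175 and 107 CPM in control lungs and 379, 156 and 221 CPM in LPS lungs. The value was -0.87 ± 0.33, and -0.63 without LPS 1. Mouse Ltf itself had 275 CPM in bLF 1 and 178 CPM in LPS 1, against 2.58 to 16.4 CPM in the other 10 libraries, so its value of 0.77 ± 2.25 rests on those libraries.

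Inflammatory mediators gave no call either. Of 20 tested cytokines and mediators, 5 had a higher and 15 a lower fitted mean with bLF, beside 45.7% higher among all tested genes, and 2 were lower at an unadjusted p under 0.05, beside 2.48%. They were Il18 (-0.35 ± 0.15) and Csf1 (-0.28 ± 0.12), the growth factor of macrophages. Tnf had 0.14 ± 0.49 and Il1b -0.11 ± 0.29, and Il6 and Il10 were too low to be tested, with at most 1.46 and 0.27 FPKM in any library. Tnf was -0.10 without LPS 1 and Il1b 0.05 without control 2. Of 25 tested chemokines, 13 were higher and 12 lower, and 2 were lower at an unadjusted p under 0.05, beside 2.48%. Cxcl10 had -1.38 ± 0.61, and -0.90 without LPS 1. Cxcl3 had -1.87, and lay between -2.40 and -1.46 when each library was left out in turn. Of 38 interferon-stimulated genes, 9 were higher and 29 lower, beside 45.7% higher among all tested genes. Their median of -0.14 was 0.01 in limma on log2(FPKM + 1), -0.32 without LPS 1 and 0.09 without LPS 3. Surfactant and alveolar type 2 genes had 9 higher and 13 lower of 22, and Sftpc, the defining gene of the type 2 cell, had -0.09 ± 0.31, and 0.06 without LPS 3.

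Markers of blood and lymphoid cells moved with the LPS level or with single libraries. Of 32 tested monocyte and interstitial macrophage markers, 7 had a higher and 25 a lower fitted mean with bLF, beside 45.7% higher among all tested genes, and 3 were lower at an unadjusted p under 0.05, beside 2.48%. The median of -0.42 lay between -0.45 and -0.27 when each library was left out in turn, and it was 0.06 without LPS and -0.66 with LPS. Ms4a7, a marker of interstitial macrophages, had 2.97, 2.92 and 4.01 CPM in LPS+bLF lungs, against 6.94, 6.63 and 8.12 CPM in LPS lungs, and 1.02 to 1.75 CPM in bLF lungs, against 1.15 to 1.83 CPM in control lungs. The groups separated with LPS and overlapped without it. Neutrophil markers had 3 higher and 18 lower of 21, with a median of -0.69 that was -0.13 without LPS 1, whose summed level was 1545 CPM against 216 to 528 CPM in the other 11 libraries.

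All 21 tested B cell markers had a higher fitted mean with bLF, beside 45.7% of all tested genes. Bcl11a (0.91 ± 0.39, and 0.60 without LPS+bLF 2) was the 1 member at an unadjusted p under 0.05, beside 2.24% higher among all tested genes. The median of 0.54 was 0.16 without LPS+bLF 2, and it was -0.13 without LPS and 1.29 with LPS. Summed B cell markers were highest in LPS+bLF 2 at 914 CPM and lowest in LPS 1 at 113 CPM, against 159 to 387 CPM in the other 10 libraries. Of 11 tested plasma cell and immunoglobulin genes, 7 had a higher and 4 a lower fitted mean with bLF, with a median of 0.15. At an unadjusted p under 0.05, 3 of them were higher, beside 2.24% of all tested genes. Summed over that list, bLF lungs had 360 to 398 CPM, against 325 to 421 CPM in control lungs, which overlapped. The plasma cell gene Jchain, which joins immunoglobulin chains, had 56.5, 36.7 and 40.0 CPM in bLF lungs, against 21.4, 24.8 and 28.3 CPM in control lungs, which did not overlap. It had 62.9, 201 and 55.1 CPM in LPS+bLF lungs, against 12.2, 49.6 and 65.8 CPM in LPS lungs, which did, and its value was 1.08 ± 0.40. That value was 0.67 without LPS+bLF 2. Of 10 tested mast cell, basophil and eosinophil markers, 6 had a higher and 4 a lower fitted mean. At an unadjusted p under 0.05, 2 of these were higher, beside 2.24% of all tested genes. The mast cell protease Mcpt4 had 64.9 CPM in LPS+bLF 2 and 5.05 to 16.6 CPM in the other bLF-exposed lungs, against 2.30 to 15.2 CPM in the lungs without bLF, which overlapped. Its value was 1.52 ± 0.65, and 0.62 without LPS+bLF 2.

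Of the 45 lists, those of other tissues had the highest medians, and their part in the values of other genes was not tested beyond leaving libraries out. All 12 tested skeletal muscle genes, 18 of 19 cardiac, 17 of 18 brown fat and 10 of 11 basal and squamous genes had a higher fitted mean with bLF. Among all tested genes the share was 45.7%. Summed skeletal muscle markers were 145 to 475 CPM in bLF lungs and 139.9 to 6473 CPM in LPS+bLF lungs, against 111 to 210.4 CPM in control lungs and 105 to 157 CPM in LPS lungs. Cardiac markers summed to 152 to 4424 CPM in bLF lungs and 171 to 3944 CPM in LPS+bLF lungs, against 98.2 to 893 CPM in control lungs and 127 to 423 CPM in LPS lungs. Myh4 was at 0 in every bLF, control and LPS lung, and Nppa in every LPS lung.

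Brown fat markers summed to 298 to 4113 CPM in bLF lungs and 265 to 15345 CPM in LPS+bLF lungs, against 293 to 6800.1 CPM in control lungs and 247 to 342 CPM in LPS lungs. Squamous markers summed to 37.4 to 71.9 CPM in bLF lungs and 33.8 to 1920 CPM in LPS+bLF lungs, against 25.2 to 62.4 CPM in control lungs and 34.5 to 60.5 CPM in LPS lungs. Krt5, a basal cell keratin, was at 0 in all 3 control lungs and had 197 CPM in LPS+bLF 3 and 15.1 CPM in bLF 1, against at most 2.15 CPM in the other libraries. Its value of 8.60 was 4.98 without LPS+bLF 3 and -1.29 without bLF 1, LPS+bLF 2, LPS+bLF 3 and control 1 together. The highest sum was in LPS+bLF 3 for skeletal muscle and squamous genes, in bLF 1 for cardiac genes and in LPS+bLF 2 for brown fat genes. On the side without bLF, control 1 was highest for skeletal muscle, cardiac and brown fat genes and lowest of all 12 libraries for squamous genes. Without those 4 libraries the medians of the 4 lists were -0.36, -0.60, -0.32 and -0.14. Genes of oxidative phosphorylation followed brown fat, with 35 of 38 higher, beside 45.7% of all tested genes. Their median of 0.28 was -0.06 without LPS+bLF 2.

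**Figure D4:**
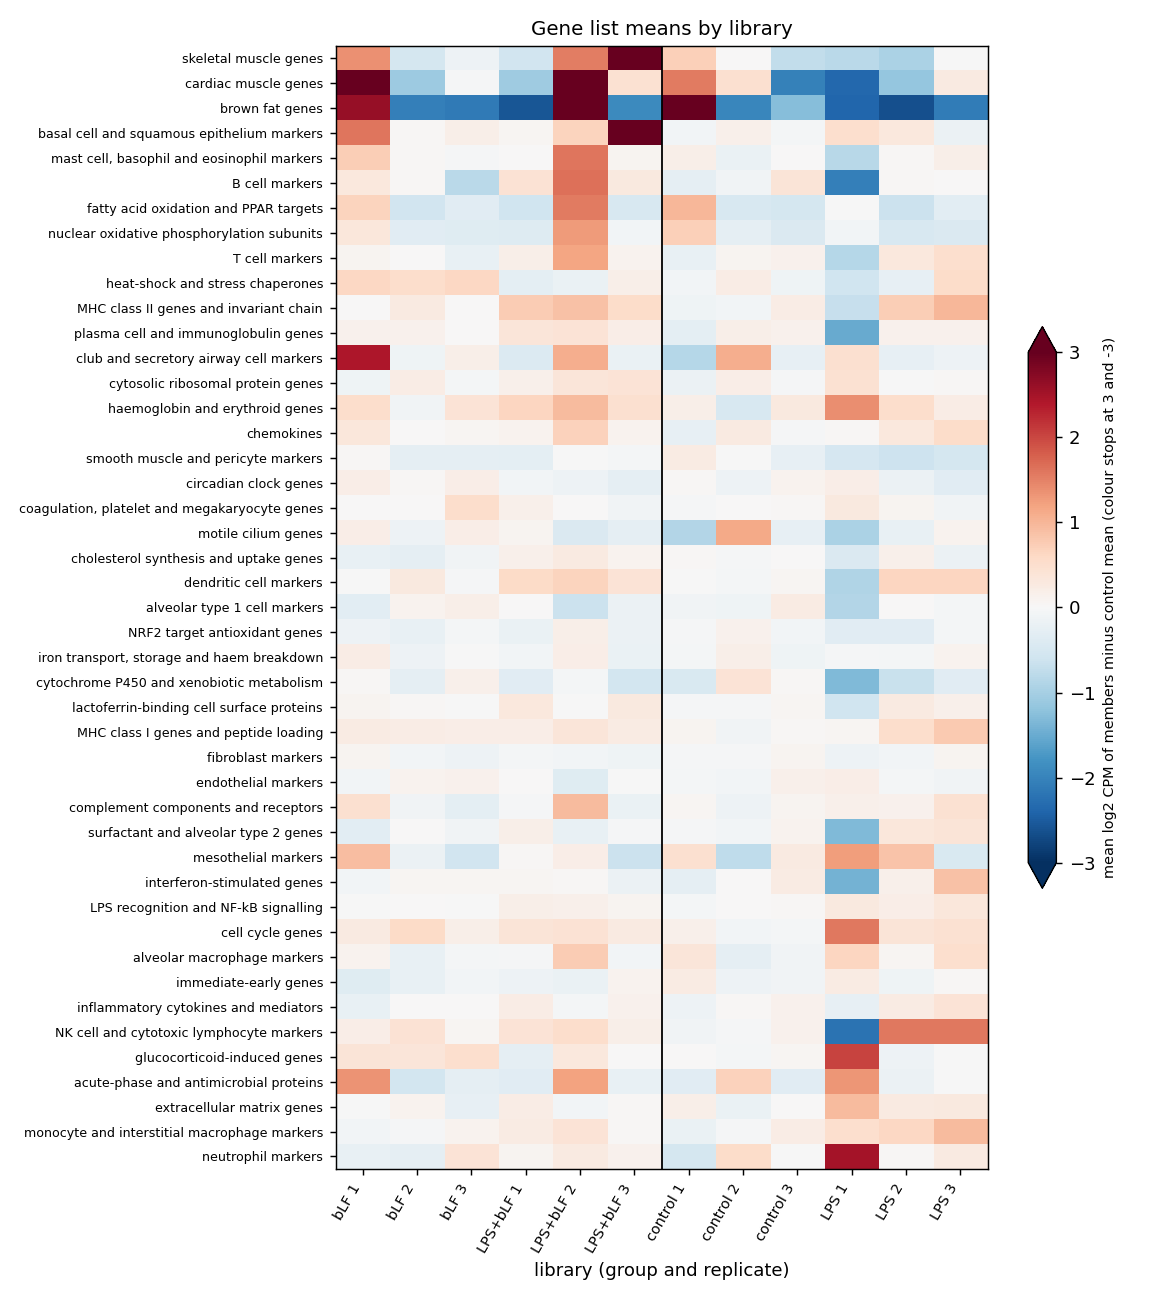
Mean log2 CPM over the tested members of each of 45 gene lists (vertical) in each library (horizontal), bLF and LPS+bLF left of the line and control and LPS right of it, as the difference from the control mean; the colour stops at 3 and -3. LPS 1 differs from LPS 2 and LPS 3 in many lists, and brown fat genes are high in bLF 1, LPS+bLF 2 and control 1.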

How the data were processed

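Lung RNA of 12 mice was sequenced with 1 library per mouse. Per the submitters' processing notes, HISAT2 2.1.0, RSEM 1.2.8 and the build mm10 were used, with no role stated; strand, annotation and filters are not given in the sources used here. Per the file headers, the deposited files give a count and an FPKM per gene. In the deposited files 4.12 to 5.91% of the counts per library were fractional, so they were treated like RSEM's expected counts and rounded. The deposited FPKM values, which the authors scaled to gene length and library size, served for the filter (at least 0.5 in 3 libraries), for limma and for levels. Of the 17920 gene IDs, 17869 matched the RefSeq table of GRCm38, which gave coordinates.

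The bLF difference came from an additive edgeR quasi-likelihood fit of bLF and LPS (9 residual degrees of freedom, TMM scaling, two-sided, Benjamini-Hochberg adjustment over all genes tested, called under 0.05). A fit of 4 group means (8 degrees of freedom) gave the differences within each LPS level and between them. Fold changes are log2, bLF-exposed over not exposed, and their SE is the fold change over the square root of F. The biological coefficient of variation was 0.357. Separation used log2 CPM with a prior count of 2. Floors of 3 counts cover counting error only, whereas the SE of a fold change and the SD also hold the spread between mice. Gene lists were described by counts and medians, with no set test. Levels per library are CPM of the TMM-scaled library size.

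Named genes were the 12 of smallest p in each direction with a mean of at least 1 FPKM, the separated genes, up to 2 or 3 members per list described, and a set chosen for lactoferrin, iron and inflammation; genes of another list that were at an unadjusted p under 0.05 are named beside its count. Of the separated genes, 1 is left out of the text. The comparison, the lists and the genes were chosen with earlier results of these data known. The code was tested on simulated counts. R 4.3.3, edgeR 4.0.16, limma 3.58.1 and DESeq2 1.42.0 were used. Alternatives were DESeq2, limma on log2(FPKM + 1) and log2(FPKM + 0.1), other scalings and filters, a robust fit, a fit without the LPS covariate, a replicate block, a minimum fold and the omission of libraries.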

Additional observations from a re-analysis of the deposited data

Results flagged for a closer look

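The mean of each of 45 gene lists was compared between libraries with bLF and, separately, libraries without it, which gave 90 sets of 6 libraries. In 16 sets the highest or lowest library lay apart from its neighbour by more than Dixon's critical share of the whole range; chance gives this in about 1 in 20 sets, and each set mixes both LPS levels. Values are log2 differences from the control mean, each followed by the next library in the set.

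LPS 1 was the library in 9 of the 16. It was high for neutrophil markers (2.49, next 0.54), glucocorticoid-induced genes (2.02, next 0.05) and cell cycle genes (1.57, next 0.47). It was low for B cell markers (-2.05, next -0.26), plasma cell and immunoglobulin genes (-1.50, next -0.30), surfactant and alveolar type 2 genes (-1.31, next -0.07) and alveolar type 1 markers (-0.89, next -0.13). It was also low for mast cell, basophil and eosinophil markers (-0.83, next -0.19) and for lactoferrin-binding surface proteins (-0.59, next -0.04).

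LPS+bLF 2 was high for T cell markers (1.18, next 0.19), alveolar macrophage markers (0.75, next 0.10) and MHC class I genes (0.36, next 0.26). LPS+bLF 3 was high for skeletal muscle genes (6.05, next 1.53) and for basal and squamous markers (4.86, next 1.61). Control 1 was high for brown fat genes (3.23, next -1.27) and for oxidative phosphorylation subunits (0.71, next -0.08).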

How the results depend on the processing

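In edgeR the count of called genes stayed at 0 under the RLE and upper-quartile scalings, either other filter (none, or a mean of 5 FPKM), the averaged 4-group fit, no LPS covariate, the robust fit, the replicate block, the minimum fold and the omission of each library. DESeq2 called 2 genes. Among genes at an unadjusted p under 0.05, limma gave 158 higher on log2(FPKM + 1) and 157 on log2(FPKM + 0.1), a mean of at least 5 FPKM gave 169 higher, and a minimum absolute log2 fold change of 1 gave 75 higher and 28 lower. Leaving out each library gave 168 to 722 higher and 160 to 908 lower, most without control 1 (722 and 647) or LPS 1 (627 and 908), and fewest without bLF 1 (168 and 205) or LPS+bLF 3 (173 and 160). Without control 1, bLF 1, LPS+bLF 2 and LPS+bLF 3 together there were 63 higher and 81 lower. Without these and LPS 1, chosen after seeing the data, there were 741 and 787, with 1 call (Gm14296, -10.06). LPS+bLF against LPS had 0 to 2 calls over the omissions. The replicate block left 215 lower and 243 higher. Of 18 same-number correlations, 5 were over 0.1 (-0.69 to 0.57). Libraries of different number also correlated, at 0.69 for bLF 1 with LPS+bLF 2. This check therefore cannot show whether the replicate numbers pair the mice.

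Separation within LPS levels held 58 genes on FPKM, and 64 with a mean of at least 5 FPKM, where the 5-of-6 rule held 822 and 9 of the 30 fully separated genes were higher. Leaving out each library gave 53 to 171, 124 to 373 and 1655 to 3531 genes by the 3 rules, which ask less of fewer libraries. Without the 4 libraries they held 407, 828 and 7086 genes, and without the 5 they held 1355, 2756 and 10817. Over 157 named genes and all alternatives, 3798 of 3871 values kept their side of the threshold or stayed close, 71 moved, 2 newly passed (both in DESeq2) and 52 changed sign, 2 of them among the 24 genes of smallest p. Causes were not tested. The median SE of a bLF difference was 0.20 on the log2 scale.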
